A study of Homo sapiens with 12 samples.

Results

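The E2F and DP transcription factors measured here were the 10 genes E2F1 to E2F8, TFDP1 and TFDP2, taken by name from the 18404 genes that a probe set of 1 gene represents. Each of the 10 had 1 such probe set, so no choice between probe sets was needed. Their mRNA was measured on 12 Affymetrix ST arrays of NB4, an established acute promyelocytic leukemia line in which all-trans retinoic acid (ATRA) starts granulocytic maturation. Knockdown cells expressed an shRNA against HOTAIRM1, a long noncoding RNA of the HOXA region, and control cells were wild type or expressed a scrambled shRNA. In the ATRA state (96 hours at 0.5 uM), 3 arrays held knockdown cells (HOTAIRM1 shRNA1 in replicates 1 and 2, HOTAIRM1 shRNA2 in 1 sample) and 3 held control cells (scrambled shRNA in replicates 1 and 2, wild type in 1 sample). The untreated state had 3 knockdown and 3 control arrays of the same kinds. The shRNA was delivered by a lentiviral vector with a GFP marker, and the lines came from single cells, so a difference between shRNA lines can also be one between clones. No named probe set exists for HOTAIRM1 in the annotation used, and the depth of its knockdown was not checked here.

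E2F proteins bind DNA at the promoters of genes for the G1 to S transition, most of them as a dimer with a DP protein, which TFDP1 and TFDP2 encode. In resting or differentiating cells pocket proteins of the retinoblastoma family bind E2F and hold these promoters down, and cyclin-dependent kinases release them when a cell enters the cycle. E2F1, E2F2 and E2F3 are known as activators. E2F4 and E2F5 act mainly as repressors with pocket proteins, E2F6 represses without them, in a complex with Polycomb proteins, and E2F7 and E2F8 repress without a DP partner. Exit from the cycle is part of granulocytic maturation, which is why these genes bear on the ATRA response.

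Some E2F genes are themselves known E2F targets, so their promoters are shown with matches to the E2F consensus in capitals. The motifs searched on both strands were TTTGGCGC, TTTCCCGC, TTTCGCGC and TTTGCCGC. The windows run from 250 bases before to 50 after a RefSeq start (GRCh38.p14), 5′ to 3′ along the gene. Of the members, 8 had a window, and 4 of these (50%) held a match, while 3.99% of 27305 genes did. A gene with several windows was counted if any of them held a match. E2F3 had 2 windows, and only the one with a match is shown. E2F7, which held none, is shown beside the 4 with a match.
E2F1 (chr20:33686336-33686635, minus strand): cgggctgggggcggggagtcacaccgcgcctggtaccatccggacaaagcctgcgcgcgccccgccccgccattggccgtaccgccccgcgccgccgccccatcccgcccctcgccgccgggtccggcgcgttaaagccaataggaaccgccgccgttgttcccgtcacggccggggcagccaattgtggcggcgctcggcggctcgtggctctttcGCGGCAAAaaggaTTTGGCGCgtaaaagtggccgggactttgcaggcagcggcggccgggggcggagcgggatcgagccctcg
E2F2 (chr1:23531184-23531483, minus strand): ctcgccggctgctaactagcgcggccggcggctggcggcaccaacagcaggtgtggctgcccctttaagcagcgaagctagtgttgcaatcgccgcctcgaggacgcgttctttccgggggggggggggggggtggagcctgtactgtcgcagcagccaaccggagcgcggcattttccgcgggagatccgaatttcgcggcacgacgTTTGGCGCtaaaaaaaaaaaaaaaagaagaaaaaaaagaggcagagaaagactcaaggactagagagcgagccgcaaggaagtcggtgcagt
E2F3 (chr6:20401629-20401928, plus strand): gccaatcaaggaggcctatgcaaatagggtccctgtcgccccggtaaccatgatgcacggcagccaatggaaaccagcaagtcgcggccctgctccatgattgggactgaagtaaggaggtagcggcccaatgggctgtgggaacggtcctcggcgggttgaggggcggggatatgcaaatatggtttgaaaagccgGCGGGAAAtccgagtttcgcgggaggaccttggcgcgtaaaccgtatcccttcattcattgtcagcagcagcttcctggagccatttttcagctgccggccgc
TFDP1 (chr13:113584503-113584802, plus strand): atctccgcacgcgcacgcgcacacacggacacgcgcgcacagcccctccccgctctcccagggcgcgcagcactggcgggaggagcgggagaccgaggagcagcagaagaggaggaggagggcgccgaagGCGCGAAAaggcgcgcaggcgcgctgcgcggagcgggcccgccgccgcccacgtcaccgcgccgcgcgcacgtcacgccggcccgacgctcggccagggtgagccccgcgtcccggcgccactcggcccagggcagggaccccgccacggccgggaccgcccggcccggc
E2F7 (chr12:77065520-77065819, minus strand): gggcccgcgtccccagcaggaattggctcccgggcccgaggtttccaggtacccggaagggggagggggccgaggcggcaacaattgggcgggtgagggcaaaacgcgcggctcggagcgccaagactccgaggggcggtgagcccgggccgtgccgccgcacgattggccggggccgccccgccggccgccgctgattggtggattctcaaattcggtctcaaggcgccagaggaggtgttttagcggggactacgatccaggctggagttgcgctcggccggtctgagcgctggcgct
E2F1 held a match 33 bases before its start and another 20 bases before it, and these did not overlap. The match began 42 bases before the start in E2F2, 53 in E2F3 and 120 in TFDP1. E2F4, E2F6 and TFDP2 held no match in their windows. A match is a run of letters and not a measured binding site.

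Levels are log2 probe set signals as deposited, which cannot be set against each other between genes. Array medians lay between 7.73 and 7.81, and the number of arrays limits the precision. Across all genes, Pearson's r between arrays of 1 arm lay between 0.979 and 0.995, and the untreated scrambled replicate 2 array stood apart on principal component 1, with a score of -10.6 against -41.2 to -32.5 on the other untreated arrays. The mean of 5 promyelocyte granule genes ran over the arrays from 10.70 to 11.11 after ATRA against 11.18 to 11.57 untreated in knockdown cells, and from 10.06 to 10.93 against 10.82 to 11.41 in control cells. In knockdown cells CTSG changed by -2.45 with ATRA and the others by -0.23 to 0.04, so the list did not fall as a group there. In control cells CTSG changed by -1.08 and the others by -0.59 to 0.05. The mean of 3 B cell genes ran from 7.17 to 8.36 on all arrays. With no detection call, neither list shows by itself which of its genes were expressed. Each gene was tested with limma over all 18404 genes, with a call at a Benjamini-Hochberg adjusted p under 0.05. The labels call the duplicates biological without naming separate cultures or clones, so the p values cover only the variation among these arrays, which may in part be technical.

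**Figure D1:**
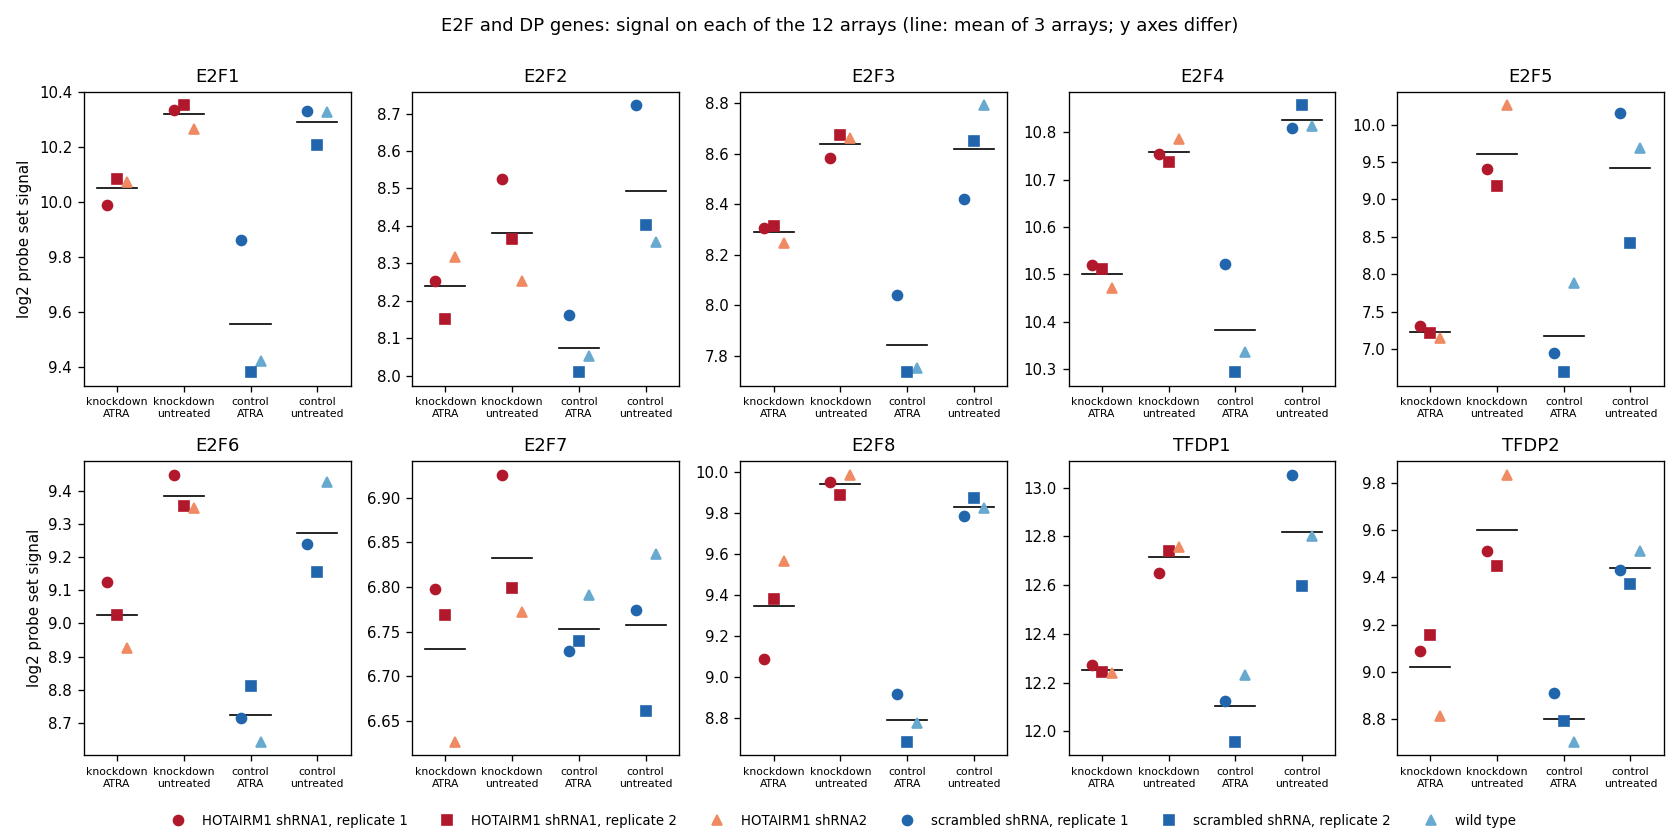
Log2 probe set signal (y axis, scaled for each gene) of the 10 genes on the 12 arrays, by arm (x axis). Points are arrays, with colour and shape for the line, and the bar is the mean of 3. All 3 ATRA arrays lie below the 3 untreated ones for 9 genes in control cells and for 8 in knockdown cells, and E2F7 overlaps in both.

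Most E2F and DP genes were lower after ATRA in both kinds of cells. In knockdown cells 7 of 10 members fell and 0 rose, where 14.7% of all genes fell and 10.1% rose. With the line as a block, 5 passed there. In control cells 9 of 10 fell and 0 rose, where 20.9% of all genes fell and 15.2% rose. The median log2 change of the 10 members was -0.35 in knockdown cells, with a median of -0.03 over all genes, and -0.68 in control cells, with a median of 0.05 over all genes. ATRA and untreated arrays did not overlap for 8 members in knockdown cells, as for 41.3% of all genes, and for 9 in control cells, as for 48.6% of all genes. E2F5 made the largest change among the members and E2F7 the smallest in both. In bulk RNA, fewer cycling cells and less mRNA per cell cannot be told apart.

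Of the activators, E2F1, which drives S phase genes and can also promote apoptosis, read 9.99 and 10.08 in shRNA1 cells and 10.07 in shRNA2 cells after ATRA, against 10.34, 10.35 and 10.27 untreated. In control cells it read 9.86 and 9.38 in scrambled cells and 9.42 in wild type cells after ATRA, against 10.33, 10.21 and 10.33 untreated. The ATRA arrays were lower in both kinds of cells without overlap. Within control cells the scrambled replicate 1 ATRA array was nearest to the untreated ones. The log2 change was -0.27 (SE 0.11, adjusted p = 0.107) in knockdown cells, and E2F1 fell by 0.73 (SE 0.11, adjusted p = 0.000512) in control cells. Without scrambled replicate 1 after ATRA, the fall in knockdown cells passed the test at the same -0.27 (SE 0.07, adjusted p = 0.0161).

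E2F3, an activator needed for normal proliferation, read 8.31 and 8.32 in shRNA1 cells and 8.25 in shRNA2 cells after ATRA, against 8.59, 8.67 and 8.66 untreated. In control cells it read 8.04 and 7.73 in scrambled cells and 7.75 in wild type cells after ATRA, against 8.42, 8.65 and 8.79 untreated. It fell by 0.35 (SE 0.11, adjusted p = 0.0294) in knockdown cells and fell by 0.78 (SE 0.11, adjusted p = 0.000266) in control cells. Again the scrambled replicate 1 array had the highest control level after ATRA. The call in knockdown cells rests on all arrays of that contrast, since it ended without any 1 of the 6, at adjusted p values from 0.0516 to 0.0912, and with the line as a block (adjusted p = 0.0834). E2F2, the remaining activator, ranged from 8.15 to 8.32 after ATRA against 8.25 to 8.52 untreated in knockdown cells, and from 8.01 to 8.16 against 8.36 to 8.72 in control cells. Its ranges overlapped in knockdown cells, where the change was -0.14 (SE 0.11, adjusted p = 0.406), and it fell by 0.42 (SE 0.11, adjusted p = 0.0101) in control cells.

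Among the repressors that act with pocket proteins, E2F5 read 7.31 and 7.22 in shRNA1 cells and 7.15 in shRNA2 cells after ATRA, against 9.40, 9.17 and 10.26 untreated. In control cells it read 6.95 and 6.69 in scrambled cells and 7.89 in wild type cells after ATRA, against 10.16, 8.42 and 9.68 untreated. No ATRA array reached any untreated one, and untreated scrambled replicate 2 was the lowest of the untreated arrays. E2F5 fell by 2.39 (SE 0.42, adjusted p = 0.00194), 5.23-fold, in knockdown cells and fell by 2.24 (SE 0.42, adjusted p = 0.00188), 4.73-fold, in control cells. Among all 18404 genes, 3 fell further in knockdown cells and 1 in control cells. Its SE was far above the median of 0.10 over all genes. The other member of this kind, E2F4, which is the main E2F bound to pocket proteins in resting cells, ranged from 10.47 to 10.52 after ATRA against 10.74 to 10.79 untreated in knockdown cells, and from 10.29 to 10.52 against 10.81 to 10.86 in control cells. It fell by 0.26 (SE 0.07, adjusted p = 0.0196) in knockdown cells and fell by 0.44 (SE 0.07, adjusted p = 0.000708) in control cells. After quantile normalization the change was -0.18 in knockdown cells, where the call was lost (adjusted p = 0.0653), and -0.26 in control cells (adjusted p = 0.0102). The knockdown call also ended without untreated shRNA1 replicate 1 (adjusted p = 0.0507), untreated shRNA2 (0.0614) or shRNA2 after ATRA (0.0668), and with the line as a block (0.0569).

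E2F6, which represses through chromatin-modifying partners, ranged from 8.93 to 9.13 after ATRA against 9.35 to 9.45 untreated in knockdown cells, and from 8.64 to 8.81 against 9.16 to 9.43 in control cells. It fell by 0.36 (SE 0.09, adjusted p = 0.0109) in knockdown cells and fell by 0.55 (SE 0.09, adjusted p = 0.000668) in control cells.

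The atypical repressors E2F7 and E2F8, which carry a pair of DNA-binding domains and can form dimers with each other, gave different values. E2F8 read 9.09 and 9.38 in shRNA1 cells and 9.57 in shRNA2 cells after ATRA, against 9.95, 9.89 and 9.99 untreated. In control cells it read 8.91 and 8.68 in scrambled cells and 8.77 in wild type cells after ATRA, against 9.78, 9.88 and 9.82 untreated. The untreated arrays lay close together, and the ATRA arrays spread further in knockdown than in control cells. E2F8 fell by 0.60 (SE 0.11, adjusted p = 0.00225), 1.51-fold, in knockdown cells and fell by 1.04 (SE 0.11, adjusted p = 8.77e-05), 2.05-fold, in control cells. E2F7 read between 6.63 and 6.80 after ATRA against 6.77 to 6.93 untreated in knockdown cells, and between 6.73 and 6.79 against 6.66 to 6.84 in control cells. The arms overlapped, with log2 changes of -0.10 (interval -0.27 to 0.07, adjusted p = 0.404) and -0.0047 (interval -0.17 to 0.16, adjusted p = 0.966). E2F7 lay among the lowest 33.3% of genes by mean signal, and the files give no detection call, so it is not known whether its mRNA was above background. E2F8 was thus called in both kinds of cells and E2F7 in neither, and the difference between their changes was not tested.

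Both DP genes fell. TFDP1, which encodes the main partner DP1, read 12.27 and 12.24 in shRNA1 cells and 12.24 in shRNA2 cells after ATRA, against 12.65, 12.74 and 12.76 untreated. In control cells it read 12.12 and 11.96 in scrambled cells and 12.23 in wild type cells after ATRA, against 13.05, 12.60 and 12.80 untreated. The knockdown arrays after ATRA lay closer together than the control arrays. TFDP1 fell by 0.47 (SE 0.11, adjusted p = 0.00862) in knockdown cells and fell by 0.71 (SE 0.11, adjusted p = 0.000516) in control cells. TFDP2, the other partner gene, ranged from 8.81 to 9.16 after ATRA against 9.45 to 9.83 untreated in knockdown cells, and from 8.70 to 8.91 against 9.37 to 9.51 in control cells. It fell by 0.58 (SE 0.12, adjusted p = 0.00385) in knockdown cells and fell by 0.64 (SE 0.12, adjusted p = 0.00159) in control cells. For TFDP2 the difference between the responses was 0.06, with an interval of -0.30 to 0.42.

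**Figure D2:**
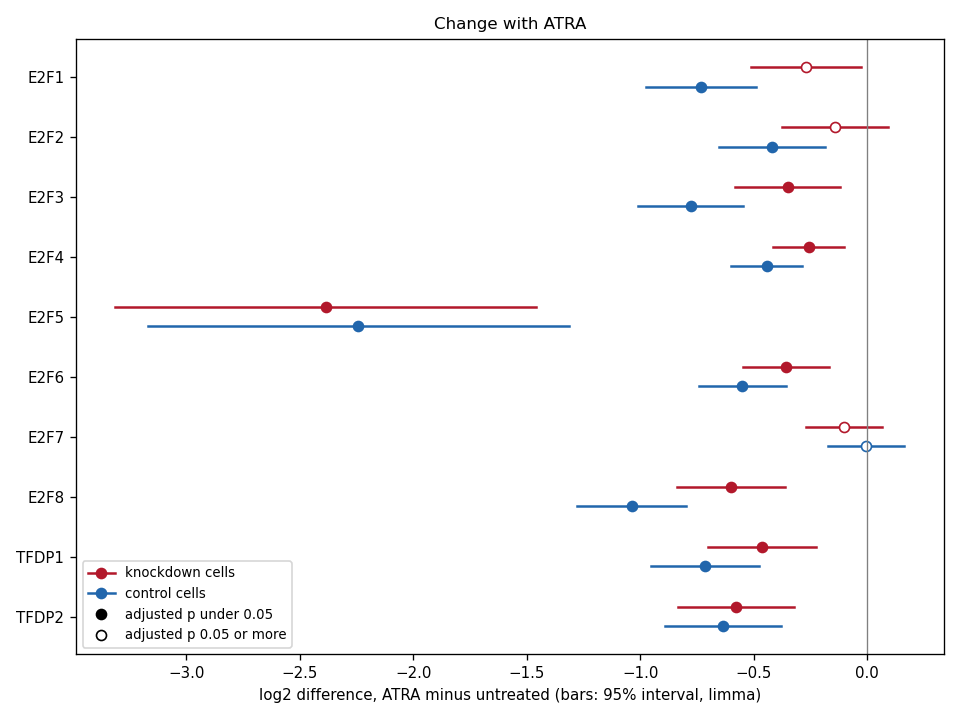
Log2 difference of ATRA minus untreated (x axis) for the 10 genes in knockdown and control cells, with 95% intervals from limma and filled points at an adjusted p under 0.05. E2F5 lies far to the left in both, E2F7 lies near 0, and E2F1, E2F3 and E2F8 lie further left in control cells.

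Before ATRA no member passed the test between knockdown and control cells. limma called 0 of the 10 members and 0 of 18404 genes (0%), with 0 members and 727 genes (3.95%) at an unadjusted p under 0.05. The arrays did not overlap for E2F4, lower in knockdown cells, and E2F8, higher there, 2 of 10 members, as for 7.79% of all genes. The differences ran from -0.11 for E2F2 (interval -0.35 to 0.12) to 0.19 for E2F5 (interval -0.73 to 1.12), with an adjusted p of 0.999 for each. The interval for E2F1 was -0.21 to 0.27, and that for E2F3 was -0.21 to 0.25. For E2F8 it was -0.12 to 0.35, and for TFDP1 it was -0.34 to 0.14. Intervals of this width do not show that the levels were alike, least of all for E2F5.

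After ATRA the activators E2F1 and E2F3 and the repressor E2F8 had higher values in knockdown than in control cells, but none passed the threshold in the test as planned. The knockdown and control arrays, given above, did not overlap for E2F1, E2F3, E2F6, E2F8 and TFDP1, 5 of 10 members, as for 35.1% of all genes. E2F8 averaged 9.35 ± 0.24 in knockdown cells and 8.79 ± 0.12 in control cells (SD, n = 3 each), a difference of 0.56 (SE 0.11) with an adjusted p of 0.0539 in limma. E2F1 averaged 10.05 ± 0.05 and 9.56 ± 0.27 in the same cells, a difference of 0.49 (SE 0.11, adjusted p = 0.0539). E2F3 averaged 8.29 ± 0.04 in knockdown cells and 7.84 ± 0.17 in control cells, a difference of 0.45 (SE 0.11, adjusted p = 0.0555), and E2F6 differed by 0.30 (SE 0.09, adjusted p = 0.0732). The other 6 members differed by -0.02 to 0.22, with intervals of -0.88 to 0.97 for E2F5 and -0.09 to 0.38 for TFDP1. Among all genes, 11 were called (0.0598%), while 5171 (28.1%) had an unadjusted p under 0.05, 4 members among them. Without untreated scrambled replicate 2, 701 genes were called, with E2F8 (adjusted p = 0.0424), E2F1 (0.0459) and E2F3 (0.0491) among them at the same differences, so these calls turn on 1 array that is not in the comparison. The 11 calls became 0 without both wild type arrays or without any 1 of untreated wild type, untreated shRNA1 replicate 1, untreated shRNA1 replicate 2, scrambled replicate 2 after ATRA, shRNA1 replicate 1 after ATRA and shRNA2 after ATRA. Without scrambled replicate 1 after ATRA, E2F1 alone of the members passed, at a difference of 0.65 (adjusted p = 0.0212).

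**Figure D3:**
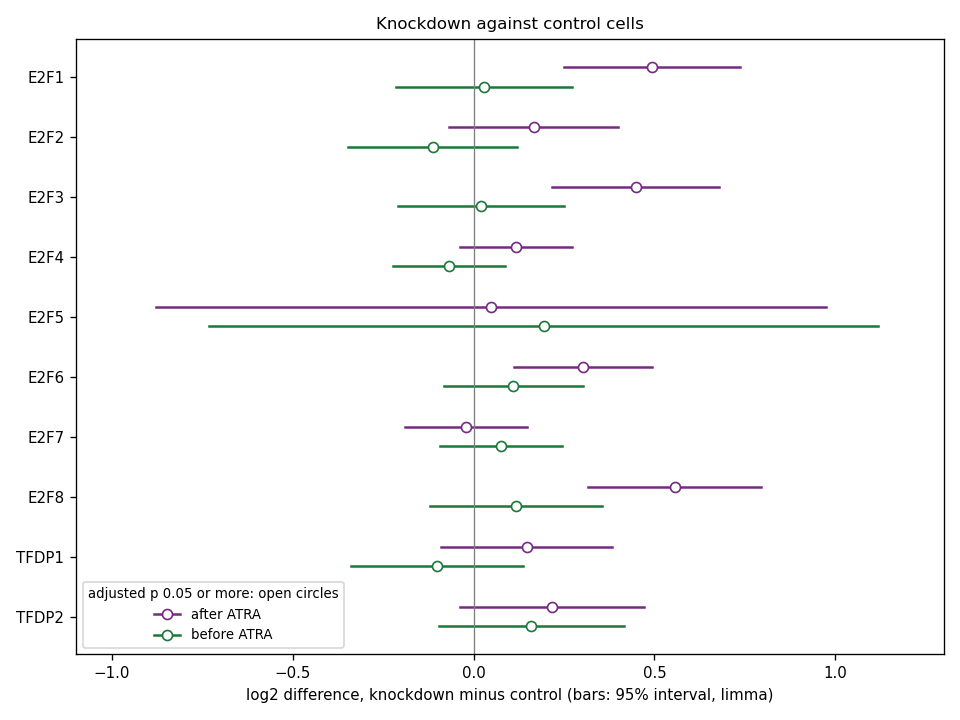
Log2 difference of knockdown minus control (x axis) for the 10 genes after and before ATRA, with 95% intervals from limma. After ATRA the intervals of E2F1, E2F3, E2F6 and E2F8 lie above 0, before ATRA all 10 include 0, and no adjusted p is under 0.05.

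The difference between the ATRA responses asks whether the fall was smaller with the knockdown. For E2F1 the changes of matched arrays were -0.35 and -0.27 in shRNA1 cells and -0.19 in shRNA2 cells, against -0.47 and -0.83 in scrambled cells and -0.90 in wild type cells. For E2F8 they were -0.86, -0.51 and -0.42 in knockdown cells, against -0.87, -1.19 and -1.05 in control cells, so that shRNA1 replicate 1 and scrambled replicate 1 were almost equal. For E2F3 they were -0.28, -0.36 and -0.42 in knockdown cells, against -0.38, -0.92 and -1.04 in control cells, and here scrambled replicate 1 overlapped the knockdown changes. The fitted differences were 0.46 for E2F1 (interval 0.12 to 0.81, adjusted p = 0.276), 0.44 for E2F8 (interval 0.10 to 0.78, adjusted p = 0.277) and 0.43 for E2F3 (interval 0.10 to 0.75, adjusted p = 0.277). limma called 0 members and 0 genes (0%), with 3 members and 2815 genes (15.3%) at an unadjusted p under 0.05. Changes did not overlap between knockdown and control pairs for E2F1, E2F2, E2F8 and TFDP1, 4 of 10, as for 22.6% of all genes. For E2F5 the fitted difference was -0.15 with an interval of -1.45 to 1.16. E2F1 and E2F2 passed the ATRA test in control cells only, and neither is shown to differ in its response by this test (E2F2 0.28, adjusted p = 0.379).

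**Figure D4:**
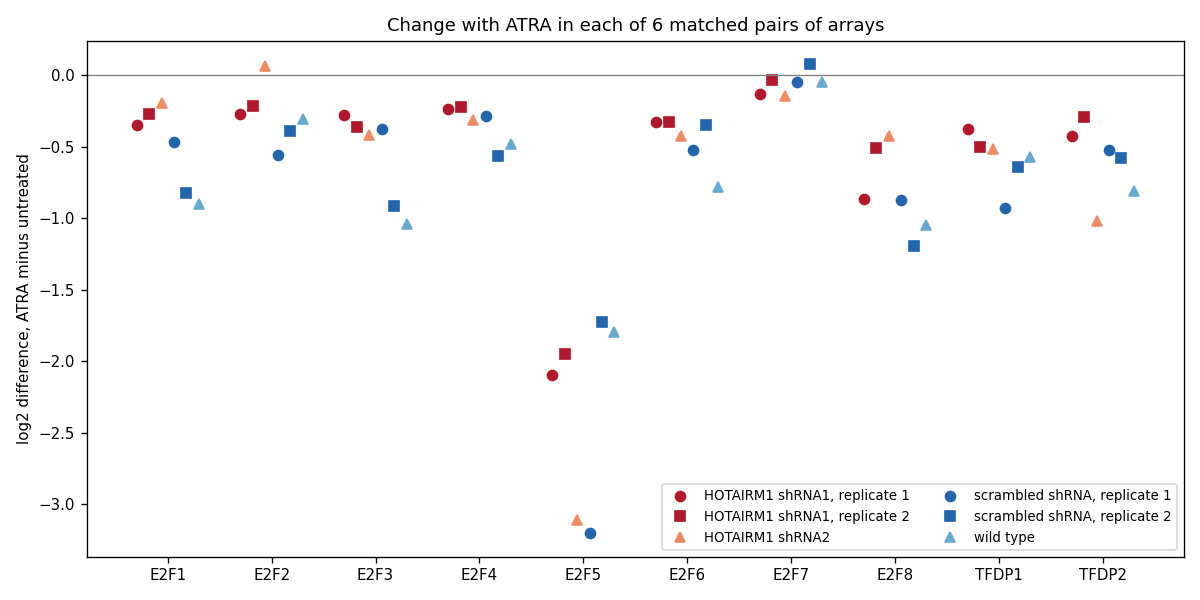
Log2 change, ATRA minus untreated (y axis), of each gene (x axis) in 6 pairs of arrays matched by shRNA and replicate number. All 6 pairs fall for 8 of the genes, E2F2 is above 0 in the shRNA2 pair, and E2F7 is above 0 in the scrambled replicate 2 pair. The share of all genes that fell in all 6 pairs was not counted, so the 8 cannot be set against it.

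Of the 3 pocket protein genes, 2 rose and 0 fell in knockdown cells, and 1 rose and 1 fell in control cells. Beside this list and those below, 14.7% of all genes fell and 10.1% rose in knockdown cells. In control cells 20.9% of all genes fell and 15.2% rose. RB1, the retinoblastoma protein, rose by 0.42 (SE 0.10, adjusted p = 0.0104) with ATRA in knockdown cells and by 0.41 (SE 0.10, adjusted p = 0.00888) in control cells. RBL2, which encodes p130 and partners E2F4 in resting cells, rose by 0.29 (SE 0.09, adjusted p = 0.044) in knockdown cells and differed by 0.05 (adjusted p = 0.728) in control cells. RBL1, which encodes p107 and is itself an E2F target, differed by 0.11 (adjusted p = 0.659) in knockdown cells and fell by 0.61 (SE 0.15, adjusted p = 0.00782) in control cells, and its difference between the responses was 0.73 (SE 0.21, adjusted p = 0.271). The call of RBL2 ended without any 1 of the 6 knockdown arrays (adjusted p from 0.0609 to 0.151), without untreated wild type (0.0597), without scrambled replicate 1 after ATRA (0.0544), with a variance trend (0.0558) and with the line as a block (0.052). Without both wild type arrays the control calls of RB1 (0.117) and RBL1 (0.0801) ended. Of the 7 genes of the MuvB core and its activators, which with E2F4 and p130 form a repressor complex or with MYBL2 and FOXM1 drive mitotic genes, 4 fell in knockdown cells and 5 in control cells. MYBL2 fell by 0.81 (SE 0.13) in knockdown cells and fell by 1.10 (SE 0.13) in control cells, and LIN9, a MuvB subunit, fell by 0.58 (SE 0.11) and fell by 0.96 (SE 0.11) in the same cells. The knockdown count was 2 without untreated shRNA1 replicate 1 or without shRNA1 replicate 2 after ATRA, and the control count was 3 without untreated scrambled replicate 2, without both wild type arrays or after quantile normalization.

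Of 14 measured G1 cyclins, CDKs and CDK inhibitors, which set the phosphorylation of pocket proteins, 4 fell and 0 rose in knockdown cells, and 6 fell and 1 rose in control cells. CDK2, the partner of cyclin E, fell by 0.54 (SE 0.09) in knockdown cells and fell by 0.83 (SE 0.09) in control cells. CCNE1, which encodes cyclin E1, fell by 0.81 (SE 0.18) and fell by 1.26 (SE 0.18) in the same cells. CDKN1A, the inhibitor p21, was the gene that rose in control cells, by 0.31 (adjusted p = 0.0112), and it differed by 0.04 (adjusted p = 0.784) in knockdown cells. Its control call ended after quantile normalization (adjusted p = 0.0548) or without both wild type arrays (0.0665), and without untreated shRNA2 the count that fell in knockdown cells was 2. Other inhibitor genes passed as higher under alternatives. In knockdown cells 2 rose (CDKN1B, which encodes p27, and CDKN2D) with array weights, without the lowest 33.3% of genes or without untreated scrambled replicate 2. CDKN1B alone rose there with the line as a block (adjusted p = 0.0383), after quantile normalization or without untreated shRNA2, and CDKN2D alone without both wild type arrays or untreated wild type. In control cells 3 rose after quantile normalization (CDKN1B, CDKN1C and CDKN2D), 4 with array weights (these and CDKN1A) and 2 without untreated scrambled replicate 2. With array weights 5536 of 18404 genes were called in either direction in knockdown cells and 9078 in control cells. Of 5 genes that degrade or inactivate E2F proteins, 4 fell in both kinds of cells. CCNF, the cyclin of an E2F ubiquitin ligase, fell by 0.76 (SE 0.09) in knockdown cells and fell by 0.90 (SE 0.09) in control cells. SKP2, an F-box protein that targets E2F1, fell by 0.84 (SE 0.15) and fell by 0.89 (SE 0.15) in the same cells. CDC20, an activator of the anaphase-promoting complex, fell by 0.82 (SE 0.12) in knockdown cells and fell by 0.74 (SE 0.12) in control cells. CCNA2, whose cyclin A2 directs a kinase to E2F1, fell by 0.93 (SE 0.17) and fell by 1.02 (SE 0.17) in the same cells.

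Among 12 measured genes of the E2F6 complex, 5 fell in knockdown cells and 7 in control cells, and 0 rose in either as tested here. WDR5, a subunit shared with histone methyltransferases, fell by 1.05 (SE 0.16) in knockdown cells and fell by 1.33 (SE 0.16) in control cells. EHMT2, a histone H3 lysine methyltransferase, fell by 0.36 (SE 0.09) and fell by 0.55 (SE 0.09) in the same cells. CBX3, a heterochromatin protein, fell by 0.44 (SE 0.09) in knockdown cells and fell by 0.33 (SE 0.09) in control cells, where its call ended after quantile normalization (adjusted p = 0.199) or without both wild type arrays (0.107). PCGF6, the defining Polycomb subunit of the complex, differed by -0.25 (adjusted p = 0.0808) in knockdown cells and fell by 0.53 (SE 0.10) in control cells. With the mean of all probe sets of a gene, PCGF6 fell by 0.44 (adjusted p = 0.00459) and RING1, another Polycomb subunit, rose by 0.40 (adjusted p = 0.0336) in knockdown cells. PCGF6 also passed there without shRNA1 replicate 1 after ATRA (-0.33, adjusted p = 0.0349). Without both wild type arrays 4 of the 12 fell in control cells. The germline genes that E2F6 is known from mouse to keep silent, STAG3, SMC1B, TUBA3C and SLC25A31, gave 0 calls in either kind of cells, with changes from -0.19 to 0.01 in knockdown cells and from -0.06 to 0.20 in control cells. After quantile normalization TUBA3C passed as higher in control cells, at 0.32 (adjusted p = 0.0348). In that setting it also passed as lower in knockdown than in control cells after ATRA, at -0.47 (adjusted p = 0.0497). Arm means were low for SMC1B (5.56 to 5.66) and SLC25A31 (5.29 to 5.44). With no detection call, it is not known whether their mRNA was above background, so the 0 calls do not show that silencing was kept.

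Most known E2F targets of G1 and S phase fell. Of 32 measured, 22 fell in knockdown cells and 31 in control cells, with median log2 changes of -0.61 and -1.06 and 0 genes higher. Of the 29 with a promoter window, 18 (62.1%) held an E2F motif, in a list picked for known E2F control. This list shares CCNE1, CCNE2, CCNA2, MYBL2 and RBL1 with lists above, so its counts are not separate from theirs. GMNN, the licensing inhibitor geminin, fell by 0.91 (SE 0.14) in knockdown cells and fell by 1.40 (SE 0.14) in control cells. CHEK1, the replication checkpoint kinase, fell by 0.65 (SE 0.10) and fell by 1.12 (SE 0.10) in the same cells, and CDC25A, the phosphatase that activates CDK2, fell by 1.05 (SE 0.17) in knockdown cells. RRM1, a ribonucleotide reductase subunit, fell by 0.68 (SE 0.11) in knockdown cells and fell by 1.05 (SE 0.11) in control cells. MCM2, a helicase subunit, fell by 0.49 (SE 0.11) in knockdown cells and fell by 1.10 (SE 0.11) in control cells, and ORC1, of the origin recognition complex, fell by 0.59 (SE 0.12) and fell by 1.17 (SE 0.12) in the same cells. After ATRA all 32 had a value above 0 for knockdown minus control, with a median of 0.51 (-0.03 over all genes) and 0 calls, and CDC6, which loads the MCM helicase, differed by 0.93 (SE 0.18, adjusted p = 0.0539). For the difference between responses 31 of 32 lay above 0, with a median of 0.49 (-0.01 over all genes) and 0 calls, and MCM2 differed by 0.60 (SE 0.15, adjusted p = 0.271). The 0 calls after ATRA became 16, all higher in knockdown cells, without untreated scrambled replicate 2, 14 with array weights and 6 without scrambled replicate 1 after ATRA. Over all 18404 genes the calls in these settings were 701, 696 and 78. The untreated array is not itself in the comparison. Knockdown against control after ATRA and the difference between responses share arrays with the ATRA responses and are not separate evidence. The mitotic markers of cycling cells also fell with ATRA, 5 of 6 in each kind of cells, though not the same 5. In knockdown cells their array means were 10.42 to 10.89 after ATRA against 11.29 to 11.35 untreated. In control cells they were 10.44 to 10.64 against 11.00 to 11.35. Of these markers 3 fell in knockdown cells without any 1 of the untreated or ATRA arrays of shRNA1. TOP2A did not pass in control cells (adjusted p = 0.0628), and MKI67 did not pass in knockdown cells (0.113). TOP2A passed in knockdown cells at 0.0496. That call ended after quantile normalization (0.0884), with a variance trend (0.0509) or without both wild type arrays (0.067). The median of the markers for knockdown minus control after ATRA was 0.16, with 6 of 6 above 0 (PLK1 by only 6.9e-05) and 0 calls. For the difference between responses their median was 0.01, with 3 of 6 above 0 and 0 calls. Their part in the E2F results was not tested.

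**Figure D5:**
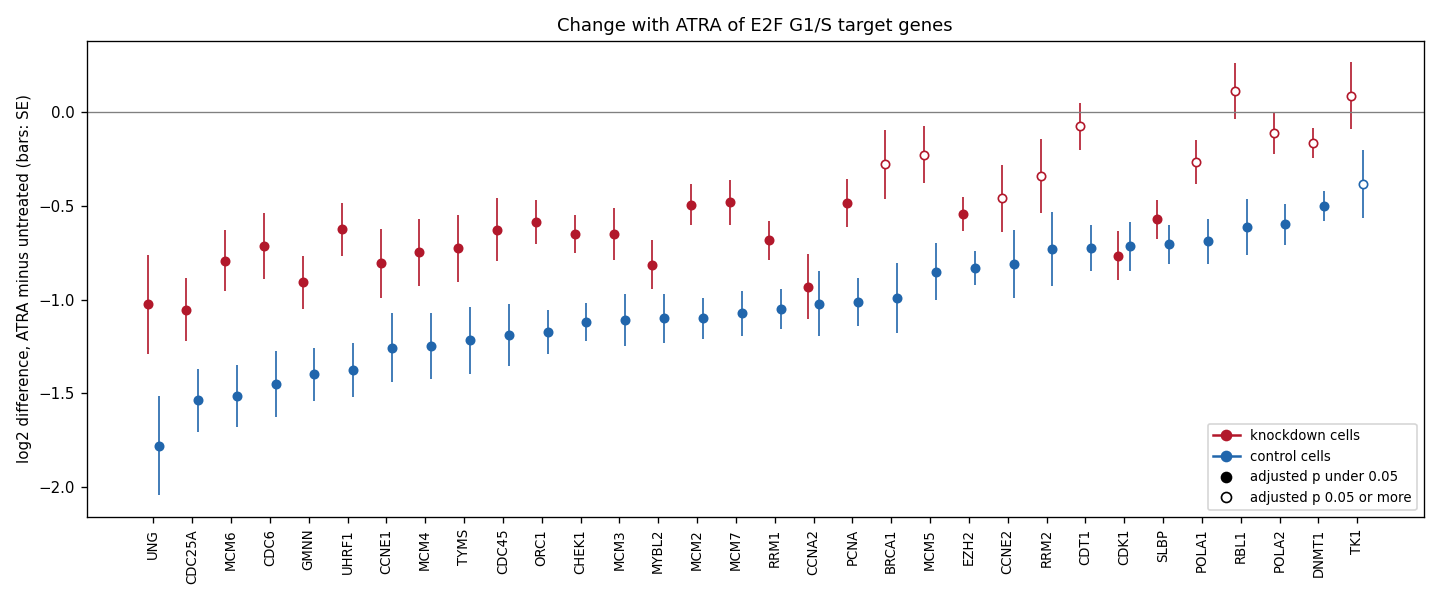
Log2 difference, ATRA minus untreated (y axis), of 32 E2F target genes (x axis, ordered by the control value) in knockdown and control cells, with SE bars and filled points at an adjusted p under 0.05. Control values lie between -1.78 and -0.38, and knockdown values between -1.05 and 0.11.

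Of 8 measured genes that E2F1 is known to induce in apoptosis, 4 rose in knockdown cells and 2 in control cells, and 0 fell. Over all genes 10.1% rose in knockdown cells and 15.2% in control cells. PMAIP1, which encodes the BH3 protein NOXA, rose by 1.46 (SE 0.25, adjusted p = 0.00151) in knockdown cells and by 0.76 (SE 0.25, adjusted p = 0.032) in control cells. APAF1, the core of the apoptosome, rose by 0.81 (SE 0.24, adjusted p = 0.029) in knockdown cells and differed by 0.41 (adjusted p = 0.204) in control cells. CASP9, the caspase it activates, rose by 0.89 (SE 0.20, adjusted p = 0.00757) in knockdown cells and differed by 0.28 (adjusted p = 0.296) in control cells. HRK, which encodes another BH3 protein, differed by -0.03 (adjusted p = 0.861) in knockdown cells and rose by 0.40 (SE 0.09, adjusted p = 0.00412) in control cells. CASP8, the initiator caspase of death receptors, rose by 0.63 (SE 0.18, adjusted p = 0.0243) in knockdown cells and differed by 0.39 (adjusted p = 0.114) in control cells. The differences between the responses did not pass the test for HRK (-0.43, adjusted p = 0.271), PMAIP1 (0.70, 0.355) or CASP9 (0.61, 0.335). Before ATRA the median of the 8 for knockdown minus control was -0.29, with 2 above 0 and 0 calls. After ATRA that median was -0.02, with 4 above 0 and 0 calls, so the list as a whole was not higher in knockdown cells. PMAIP1 and CASP9 kept their knockdown calls under every alternative that was run. The knockdown count was 2, with the calls of APAF1 and CASP8 lost, without untreated shRNA1 replicate 1, untreated shRNA2, shRNA1 replicate 2 after ATRA or shRNA2 after ATRA. In control cells the count was 1, with the call of PMAIP1 lost, without either wild type array or either scrambled replicate 1 array, 0 without both wild type arrays, and 5 without untreated scrambled replicate 2, where APAF1 (adjusted p = 0.0189), CASP8 (0.000825) and CASP9 (0.0228) passed. It was also 5 with array weights, where 9078 of 18404 genes were called in control cells in either direction. Other factors are known to control these genes too.

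Across the 12 arrays, which share the ATRA state as the main source of variation, the genes most like E2F1 were PPP5C, TIMELESS and DTL, with Pearson's r of 0.987, 0.983 and 0.980. For E2F8 they were CCP110, FBXO5 and FANCM, at 0.987, 0.985 and 0.980. E2F5 was nearest to SLC27A2, ESD and HTRA2, at 0.980, 0.978 and 0.977, and E2F3 to PXMP2, RBM17 and THADA, at 0.984, 0.978 and 0.976. TFDP1 was nearest to C1QBP, MRM3 and PCID2 (0.987, 0.986 and 0.983), TFDP2 to SFSWAP, NUDCD1 and SNAPC1 (0.983, 0.980 and 0.979), E2F4 to CYC1, EIPR1 and ATP5PB (0.983, 0.974 and 0.973) and E2F6 to GDF11, NOPCHAP1 and CEP57L1 (0.991, 0.989 and 0.984). E2F2 had the least close neighbours, MRPS18B, TMEM143 and PLEKHJ1, at 0.924, 0.923 and 0.907. Such values are common in these data, since 606 genes had an r above 0.9 with E2F1 and 945 with E2F8, against 3 with E2F2. Among the members, E2F1 and E2F3 had an r of 0.95, E2F5 and TFDP1 0.95, and E2F7 lay between 0.19 and 0.51 with all the others.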

How the data were processed

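Log2 probe set signals were used as deposited. Per the submitters' processing notes, RMA and limma were the tools, and their versions and settings are not given in the sources used here. The deposited values ran from 2.67 to 14.63, a range that fits a log2 scale. Probe sets were named through the platform annotation. Of 32321 probe sets, 19158 had 1 gene, and for 637 genes with several the probe set of highest mean signal was used, which left 18404 genes. No filter on low values was applied.

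The comparisons used limma (version 3.58.1, R 4.3.3), with lmFit on 4 arm means (8 residual degrees of freedom), eBayes, two-sided p values and Benjamini-Hochberg adjustment over all genes within a comparison. Intervals are 95% and moderated. Differences run ATRA minus untreated or knockdown minus control. With 3 arrays against 3, an exact permutation p cannot go below 0.1, so none is given. The fit was also run on simulated data with independent noise on each array. Those data held no line effect, so the run cannot show how the p values behave with one. Untreated and ATRA arrays of a line deviated together from their arm means in knockdown cells (r 0.161 and 0.226 for shRNA1, 0.119 for shRNA2). In control cells not all did (-0.108 and 0.193 for scrambled, -0.173 for wild type). The tests as planned did not pair the arrays. For knockdown cells the value with the line as a block is given where it changes a call.

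Members, gene lists and promoter motifs were chosen with earlier results of these data known. Named beside the members are up to 4 genes of a list with the smallest p, all pocket proteins, and the 3 genes most correlated with each called member. CDKN1A, CDKN1B, CDKN1C, CDKN2D, RING1 and TUBA3C were named after their values were seen. Promoter windows came from RefSeq (GRCh38.p14).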

Additional observations from a re-analysis of the deposited data

How the results depend on the processing

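The alternatives were the mean of all probe sets of a gene, removal of the lowest 33.3% of genes, quantile normalization, array weights, a variance trend, removal of both wild type arrays, a block and removal of each array in turn. The gene lists were run through the same alternatives, a choice made after seeing the data. With ATRA in control cells 9 members were called in every one, and with ATRA in knockdown cells between 5 and 8, with E2F3, E2F4 and E2F1 the ones that crossed the threshold. Over all genes the calls in these alternatives ran from 3428 to 5536 in knockdown cells and from 3460 to 9078 in control cells. For knockdown against control after ATRA the count was 0 as planned, 2 after quantile normalization (E2F3, adjusted p = 0.0492, and E2F8, 0.0497), 1 with array weights (E2F8, 0.0385) and 0 to 3 with 1 array removed. The calls over all genes in that comparison were 11 as planned, 0 without both wild type arrays and with the block, 0 to 701 with 1 array removed, 280 after quantile normalization, 696 with array weights and 63 without the lowest 33.3% of genes, where E2F7 was not tested.

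The line (shRNA and replicate number) was the block for the ATRA responses and the replicate number the block for knockdown against control, where a shared number does not mark a shared culture in the labels. With the line block, 5 members were called in knockdown cells, where E2F3 (adjusted p = 0.0834) and E2F4 (0.0569) were not, and 9 in control cells. With either block 0 were called in the other 3 comparisons, so that no other member call changed.

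Signs turned only for values that were not called. E2F7 read 0.0856 for knockdown against control after ATRA and 0.0118 for the difference between responses after quantile normalization, and 0.0162 with ATRA in control cells without both wild type arrays. TFDP2 read -0.0384 for the difference after quantile normalization and -0.0284 without the wild type arrays. E2F5 read 0.35 for the difference with array weights and 0.0782 without the wild type arrays. Before ATRA, with array weights, E2F2 read 0.00803, E2F3 -0.10 and E2F5 -0.20. With 1 array removed, the values before ATRA ran from -0.0111 to 0.0552 for E2F1, -0.19 to 0.00144 for E2F2, -0.081 to 0.11 for E2F3, -0.31 to 0.56 for E2F5 and -0.21 to 0.0162 for TFDP1. After ATRA they ran from -0.19 to 0.40 for E2F5 and -0.055 to 0.0305 for E2F7. The difference ran from -0.51 to 0.36 for E2F5 and -0.018 to 0.18 for TFDP2, and E2F7 with ATRA in control cells from -0.0528 to 0.0352. The cause was not tested. The spread of E2F5 and the low signal of E2F7 limit what 3 arrays an arm can show for them.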
